A study of Arabidopsis thaliana with 6 samples.

Results

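Methionine gamma-lyase, encoded by MGL (AT1G64660), and the core enzymes of the methionine cycle were examined in sorted root cells of Arabidopsis thaliana. The set listed 9 genes. It held MGL, the S-adenosylmethionine synthetase genes AT1G02500 (SAM1), AT4G01850 (SAM-2), AT3G17390 (MTO3) and AT2G36880 (MAT3), the methionine synthase genes AT5G17920 (ATMS1), AT3G03780 (MS2) and AT5G20980 (MS3), and the cystathionine gamma-synthase gene AT3G01120 (MTO1). Genes were matched to probe sets that the platform annotation assigns to 1 gene. Of the 9 genes, 1 had such a probe set, namely MGL with 261957_at, and the other 8 are not analysed here. MGL was itself selected on its difference between the groups, where it stood among the largest falls, so its values are given as a description with no test. To place it, 109 further genes of methionine, sulfur, folate, polyamine, ethylene, threonine and branched-chain amino acid metabolism were listed by locus. Of these, 23 had a probe set of their own among the 22746 tested.

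The cells came from roots of Col-0 seedlings grown for 5 days on standard medium. WOX5::GFP cells (3 arrays) express green fluorescent protein from the promoter of WOX5, whose homeobox protein marks the quiescent centre, and pTMO5::GFP cells (3 arrays) express it from the promoter of TMO5, known from young vascular cells. Both were collected by fluorescence sorting, so each sample is the pool of cells in which that promoter was active. Sample descriptions and the cell type tag assign quiescent centre and xylem to the reporters in opposite ways, and groups are called WOX5 and TMO5 here after the sample titles. The labels do not tell whether the 3 arrays of a reporter represent independent cultures. The p-values therefore measure only the spread between arrays, which may be technical.

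In plants, methionine is made from a homocysteine unit that cystathionine gamma-synthase and cystathionine beta-lyase assemble and that methionine synthase methylates with a folate-bound carbon group. S-adenosylmethionine synthetases then turn most of it into S-adenosylmethionine, the donor for methylation and the precursor of polyamines, nicotianamine and ethylene. Methionine gamma-lyase takes the other route and breaks methionine into methanethiol, ammonia and 2-oxobutanoate, and the last of these can enter isoleucine synthesis.

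Values are probe set intensities on a linear scale as the authors deposited them, and differences are log2 WOX5 minus log2 TMO5. Each array had a trimmed mean of 250.0, and median intensities were 91.6 to 92.5 on WOX5 and 68.1 to 74.6 on TMO5 arrays. A group was taken to lie within background below 30.8 in WOX5 and 23.4 in TMO5, a level that 95% of the 27 unspiked bacterial control probe sets stay under. WOX5 replicate 2 stood apart from its group over the brighter part of the probe sets. Its log2 values differed from those of WOX5 replicates 1 and 3 with SDs of 0.60 and 0.59, against 0.34 between replicates 1 and 3. Pairs of TMO5 arrays gave SDs of 0.44 to 0.46. Of the marker genes of the quiescent centre and stem cell niche, 5 of 8 listed were measured and 5 were higher in WOX5 cells. Of all probe sets tested, 14.3% were called higher. The lists were chosen with earlier results of these data known, so this count is a description and no independent check of cell identity. The summed intensity of these markers was 1838 to 3170 on WOX5 and 693 to 754 on TMO5 arrays. Most of it came from BBM, at 1055, 2036 and 1101 on WOX5 and 645, 666 and 585 on TMO5 arrays. AGL42, JKD and BRL1 were within background in TMO5. Of 12 xylem and vascular markers 2 were measured, with PHV lower in WOX5 cells (limma adjusted p = 0.019) and LHW at a log2 difference of 0.08 ± 0.23 (SE, n = 3 each). The cortex marker AT1G62500 averaged 419 ± 148 on WOX5 and 33.0 ± 7.98 on TMO5 arrays (SD, n = 3 each) and was called higher in WOX5. The part of these marker differences in the results that follow was not tested. WOX5 and TMO5 themselves had no named probe set. In sorted pools, fewer cells of a type and less RNA per cell cannot be told apart.

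MGL had intensities of 12.6, 5.15 and 25.7 on the WOX5 arrays, against 439, 436 and 392 on the TMO5 arrays. All 3 WOX5 values lay below the background level and all 3 TMO5 values far above it, and the groups did not overlap. The means were 14.5 ± 10.4 in WOX5 and 422 ± 26.3 in TMO5 cells (SD, n = 3 each). The measured log2 difference was -5.15 ± 0.58 (SE), and because the WOX5 level is not resolved from background the fold is given as a bound, at least 13.7-fold lower in WOX5 cells. Relative to its mean, the spread was narrow among TMO5 arrays and wide among WOX5 arrays, whose values lie within background. Leaving out WOX5 replicate 2, the lowest array, gave a log2 difference of -4.55.

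**Figure D1:**
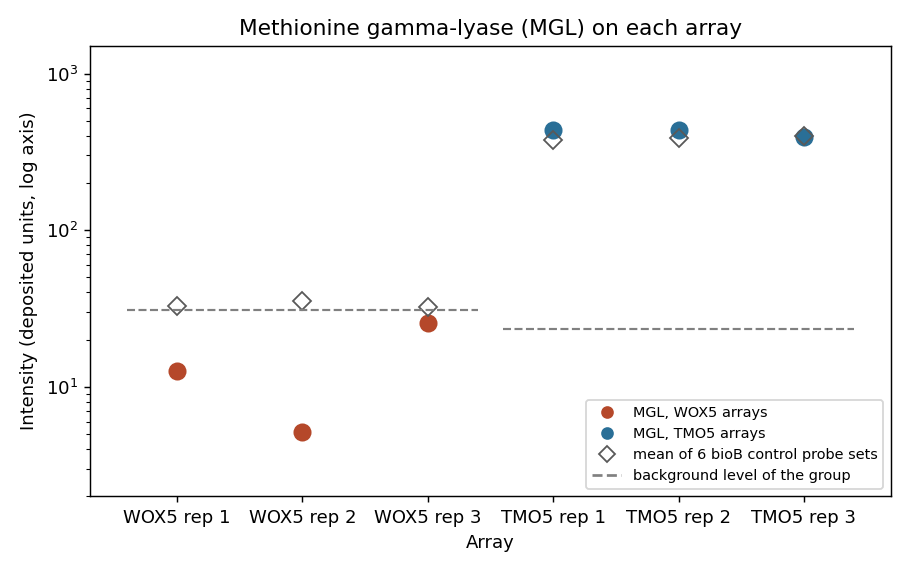
Intensity of MGL (filled circles, log axis) on the 3 WOX5 and 3 TMO5 arrays, with the mean of 6 bioB hybridisation control probe sets (open diamonds) and the background level of each group (dashed lines). MGL lies at 5.15 to 25.7 on WOX5 arrays, under the line at 30.8, and at 392 to 439 on TMO5 arrays, and the bioB controls are also lower on WOX5 arrays.

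One technical measure moved with this difference. The bioB controls, bacterial transcripts added to every hybridisation, averaged 32.6, 35.2 and 32.5 on WOX5 arrays and 376, 389 and 397 on TMO5 arrays, 12.7-fold lower on WOX5 arrays, while the more concentrated bioC and cre controls were 1.85-fold and 1.46-fold lower. Whether the lower bioB signal bears on the MGL values was not tested. Of 1194 other probe sets whose mean log2 intensity in TMO5 lay within 0.25 of that of MGL, 2 were within background in WOX5, and the median log2 difference of the 1194 was -0.15. Each reporter was used on its own arrays, so array handling and cell population cannot be told apart.

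The genes whose pattern over the 6 arrays was most like that of MGL were sought among 6217 single-gene probe sets of at least median brightness. PRH75, which encodes an RNA helicase, came first with a Pearson r of 0.9997. It read 2962, 2294 and 3691 on the WOX5 arrays, against 8059, 8338 and 7934 on the TMO5 arrays. The groups did not overlap. The WOX5 values of MGL that enter r all lie within background, so their order is not resolved. AT4G38150 (r = 0.9994), AT2G33410 (0.9983), AT3G07590 (0.9981) and AT1G08110 (0.9974) followed and have no description in the gene table. The log2 differences of these genes ran from -1.47 for PRH75 to -0.46 for AT1G08110, each smaller than the bound of 13.7-fold for MGL. An r above 0.9 was reached by 1300 of the 6217, since a gene clearly lower on the WOX5 arrays scores high over 6 arrays.

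**Figure D2:**
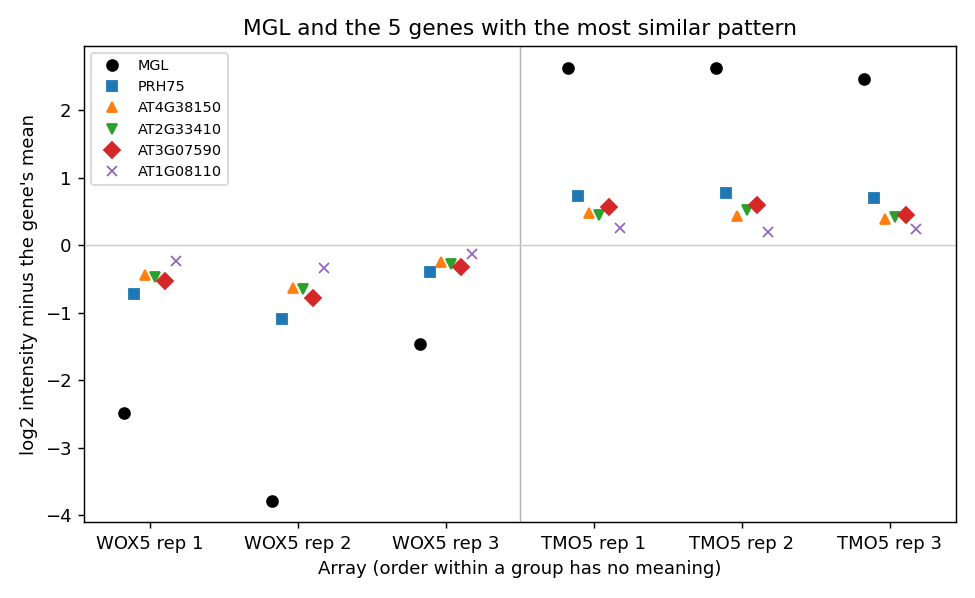
log2 intensity minus the gene's own mean over the 6 arrays, for MGL (black circles) and the 5 genes with the highest Pearson r to it, by array. All 6 genes are lower on the WOX5 arrays, where MGL lies within background, and the 5 were chosen for this likeness. Their largest log2 difference is -1.47.

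The next comparison asked how the genes around the methionine cycle stood in the same cells. Of the 23 measured, 5 were higher (21.7%) and 4 lower (17.4%) in WOX5 cells at a limma adjusted p under 0.05, and 14 did not pass. Over all probe sets tested, 23.8% passed, 14.3% higher and 9.49% lower. The median log2 difference was 0.10 over the 23 and 0.03 over all probe sets. With only 23 genes these shares lie near those of the whole table, and nothing particular to the lists is read from them. Counts within single lists, given below, rest on at most 5 measured genes each. They are to be set beside the same whole-table shares and are descriptions only. The rises were of SAMDC, AT5G15950, ARD4, APS4 and SIR, and the falls of FOLB1, FOLB2, AT3G23940 and AT1G50110. Calls higher in WOX5 made up 60.1% of all calls as deposited, 47.2% after quantile normalization and 29.7% after median centring of the arrays, and the median of all probe sets was 0.03, -0.14 and -0.35 on these scales.

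**Figure D3:**
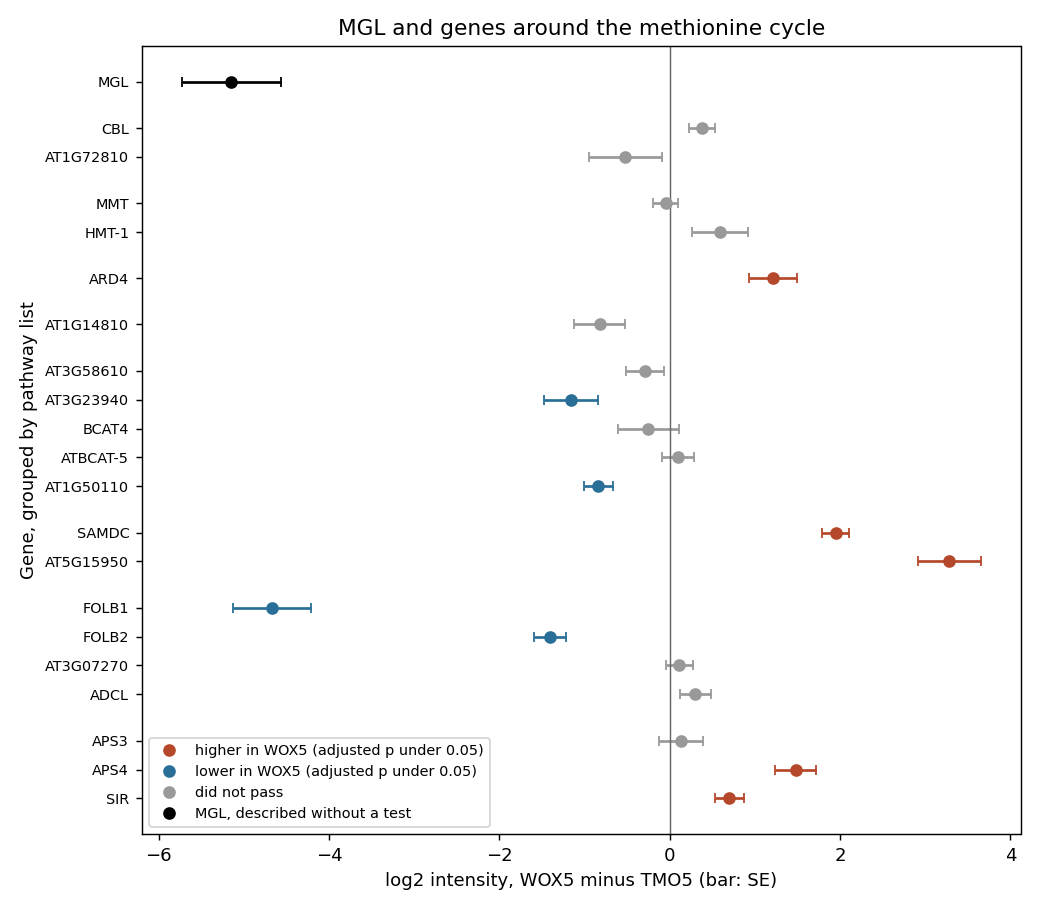
log2 intensity difference, WOX5 minus TMO5, with SE bars, for MGL (black) and the 20 pathway genes that were above background in at least 1 group, grouped by list. MGL at -5.15 and FOLB1 at -4.67 lie far left of all others, and AT5G15950 at 3.28 lies farthest right.

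Polyamine genes gave the largest rises. SAMDC (AT3G02470) encodes S-adenosylmethionine decarboxylase, which commits S-adenosylmethionine to spermidine and spermine synthesis. It read 3936, 3639 and 4157 on WOX5 arrays, against 1108, 891 and 1049 on TMO5 arrays. Every WOX5 array lay above every TMO5 array, with WOX5 cells 3.86-fold higher (log2 difference 1.95 ± 0.16 SE, limma adjusted p = 0.0017). AT5G15950, which has no description in the gene table and was placed in the polyamine list by its locus, read 692, 1515 and 667 on WOX5 arrays, against 83.1, 113 and 81.2 on TMO5 arrays. WOX5 replicate 2 was the high array, and the groups stayed apart without it. The rise was 9.73-fold (3.28 ± 0.37, limma adjusted p = 0.0040), and the log2 difference was 2.90 without that array. AT3G25570, of the same list, was within background in both groups, and of 12 listed genes 3 were measured and 2 rose, with a median log2 difference of 1.95. The remaining 9 listed genes, which include those for spermidine and nicotianamine synthases, had no named probe set.

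Methionine salvage returns the methylthio group left by polyamine, nicotianamine and ethylene synthesis to methionine. Of its 9 listed genes 1 was measured, ARD4, for an acireductone dioxygenase of that route. ARD4 had intensities of 443, 803 and 462 in WOX5 and 227, 268 and 216 in TMO5 cells. All WOX5 arrays were higher, replicate 2 by far the most, and the rise was 2.32-fold (1.21 ± 0.28, limma adjusted p = 0.031). The call was lost with centred arrays (adjusted p = 0.067), and without WOX5 replicates 1 or 3 or any 1 TMO5 array (0.051 to 0.093).

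**Figure D4:**
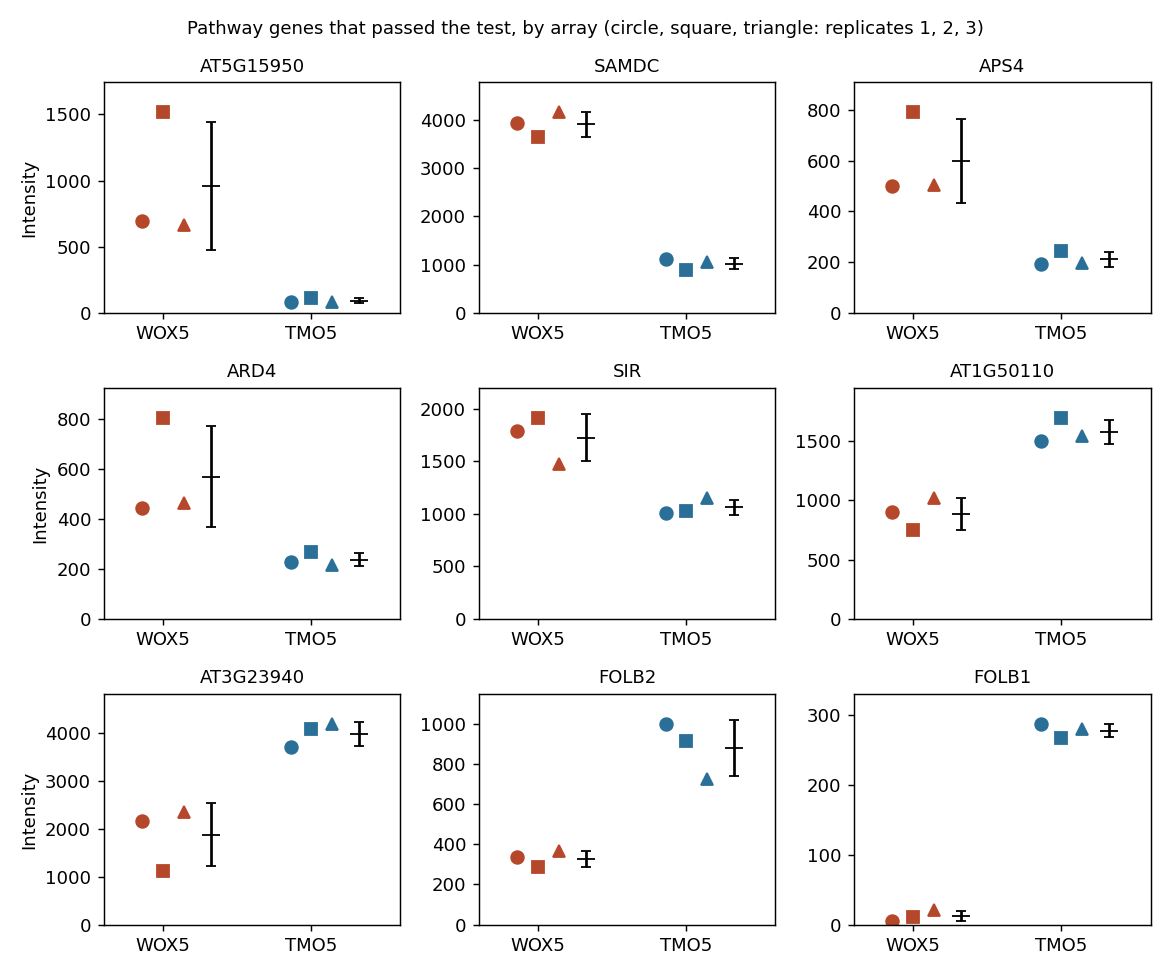
Intensity on each array (linear axis from 0) of the 9 pathway genes that passed the test, ordered by log2 difference, with group mean and SD (black bars, n = 3 each). The 9 were selected on the group difference, so the lack of overlap between their groups carries no further weight. Of the uncalled genes, CBL and AT1G14810 also show no overlap, and AT3G58610 and ADCL show none by a very narrow margin. The share of all probe sets without overlap was not determined. Among WOX5 arrays, replicate 2 (squares) lies farthest from the TMO5 arrays for 7 of the 9.

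Sulfate assimilation supplies the sulfur of cysteine and through it that of methionine. Of 20 listed genes 3 were measured and 2 rose. APS4, for an ATP sulfurylase that activates sulfate, read 500, 790 and 503 on WOX5 arrays, against 193, 245 and 195 on TMO5 arrays. The groups were well separated, with WOX5 cells 2.78-fold higher (1.48 ± 0.24, limma adjusted p = 0.012). SIR, for sulfite reductase, read 1791, 1909 and 1477 on WOX5 arrays, against 1010, 1024 and 1147 on TMO5 arrays. Its rise was smaller, 1.62-fold (0.70 ± 0.17, limma adjusted p = 0.034). It lost the call with centred arrays (adjusted p = 0.22), without WOX5 replicates 1 or 2, and without any 1 TMO5 array (0.060 to 0.11). APS3, another ATP sulfurylase gene, had 554, 1004 and 642 in WOX5 and 695, 669 and 592 in TMO5 cells, and did not pass (0.13 ± 0.26, limma adjusted p = 0.76).

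Folate genes, whose product carries the methyl group used by methionine synthase, included the fall nearest in size to that of MGL. FOLB1 and FOLB2 are dihydroneopterin aldolase genes of folate synthesis. FOLB1 read 5.78, 11.1 and 20.5 on WOX5 arrays, against 287, 268 and 280 on TMO5 arrays. As for MGL, every WOX5 value lay below background, so FOLB1 was at least 9.03-fold lower in WOX5 cells (-4.67 ± 0.46, limma adjusted p = 0.0028). The lower bioB control on WOX5 arrays stands beside this fall too, and of 1448 other probe sets of like TMO5 brightness 8 were within background in WOX5. FOLB2 was measured above background throughout, at 335, 286 and 365 in WOX5 and 997, 915 and 725 in TMO5 cells. It fell by 2.67-fold in WOX5 cells (-1.41 ± 0.19, limma adjusted p = 0.0065). The other measured folate genes did not pass. ADCL, for aminodeoxychorismate lyase, had a log2 difference of 0.30 ± 0.18 and AT3G07270 one of 0.11 ± 0.16, and of 21 listed genes 4 were measured and 2 fell.

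The list for isoleucine and threonine use includes branched-chain amino acid genes downstream of the 2-oxobutanoate that methionine gamma-lyase releases. Of 12 listed, 5 were measured and 2 fell. AT3G23940 read 2170, 1119 and 2346 on WOX5 arrays, against 3706, 4078 and 4183 on TMO5 arrays, a fall of 2.23-fold (-1.16 ± 0.32, limma adjusted p = 0.049). This call sat at the threshold and was lost with quantile normalization (adjusted p = 0.099), without WOX5 replicates 1 or 3, and without any 1 TMO5 array (0.060 to 0.13). AT1G50110 had intensities of 898, 748 and 1018 in WOX5 and 1502, 1694 and 1546 in TMO5 cells. The fall was 1.79-fold (-0.84 ± 0.17, limma adjusted p = 0.023), and the call did not survive leaving out WOX5 replicate 1 or a single TMO5 array (0.065 to 0.085). Both loci are in the list by locus and have no description in the gene table.

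The other measured genes of the isoleucine and threonine list showed no call. AT3G58610 read 8157, 5197 and 8003 on WOX5 arrays, against 8169, 8548 and 8918 on TMO5 arrays, where WOX5 replicate 2 alone was low and the other arrays differed little (-0.29 ± 0.22, limma adjusted p = 0.39). ATBCAT-5, a branched-chain aminotransferase gene, had 294, 381 and 288 in WOX5 and 314, 329 and 254 in TMO5 cells (0.10 ± 0.19, limma adjusted p = 0.75). BCAT4, whose enzyme in Arabidopsis starts the lengthening of the methionine chain for glucosinolates, was near background in both groups, at 40.0, 23.4 and 17.6 in WOX5 and 35.5, 23.0 and 34.0 in TMO5 cells.

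None of the measured genes listed around methionine synthesis passed the limma test, and at an unadjusted p under 0.05 CBL alone would have. CBL, for the cystathionine beta-lyase that makes homocysteine, read 1194, 1362 and 1230 on WOX5 arrays, against 960, 1051 and 901 on TMO5 arrays. The groups did not overlap, and the difference of 1.30-fold did not pass after adjustment over all probe sets (0.38 ± 0.15, limma adjusted p = 0.12). It passed as higher when variances were fitted robustly with an intensity trend (adjusted p = 0.046). AT1G72810, entered in the list as TS2 (threonine synthase), does not itself make methionine. It overlapped between groups at 139, 62.7 and 190 in WOX5 and 147, 178 and 186 in TMO5 cells. AT1G33320 was within background in both groups. These were the 3 measured of 5 listed. In the aspartate pathway, which feeds methionine and threonine, 1 of 8 genes was measured. AT1G14810 had intensities of 2688, 1372 and 2706 in WOX5 and 3881, 3799 and 3728 in TMO5 cells. All WOX5 arrays were lower, replicate 2 by the most, and the difference did not pass (-0.82 ± 0.30, limma adjusted p = 0.11). It passed as lower with centred arrays (adjusted p = 0.032), after dim probe sets were filtered out (0.042) and when variances were fitted robustly with an intensity trend (0.023).

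The S-methylmethionine cycle stores and moves methionine in a methylated form. MMT, for the methionine S-methyltransferase that makes it, read 579, 608 and 531 on WOX5 arrays, against 642, 575 and 563 on TMO5 arrays. These values overlapped closely, with a log2 difference of -0.05 ± 0.15 (limma adjusted p = 0.83). HMT-1, for a homocysteine methyltransferase that turns it back into methionine, had 461, 227 and 423 in WOX5 and 288, 228 and 197 in TMO5 cells. WOX5 replicate 2 fell among the TMO5 arrays, and the difference did not pass (0.59 ± 0.33, limma adjusted p = 0.25). Without that array HMT-1 was higher in WOX5 cells (0.91, limma adjusted p = 0.048). Of 14 ethylene synthesis genes 1 was measured, AT1G12010, and it lay within background in both groups. None of the 4 listed genes that recycle S-adenosylhomocysteine had a named probe set.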

How the data were processed

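Expression was measured on 6 Affymetrix arrays with biotin-labelled RNA, 3 per reporter. Per the labels' protocols, a numbered range of the project's raw files had more than 1 labelling cycle and the rest had 1, and how those numbers map to these arrays is not known here. The authors deposited linear intensity values for 22810 probe sets, without detection calls. Their software and genome build are not stated in the sources used here, and coordinates are left out.

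Values under 1 were raised to 1 (1036 values) and log2 transformed. After 64 control probe sets were set aside, 22746 entered a limma 3.58.1 fit (R 4.3.3, lmFit and eBayes) of WOX5 minus TMO5, with no block, filter or further normalization. p-values were Benjamini-Hochberg adjusted over all of them, with a threshold of 0.05. The fit was tested on simulated data. The number of arrays limits the precision.

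The platform annotation, updated through the TAIR10.1 gene table, gave 1 gene to 13513 tested probe sets, more than 1 to 503 and no gene to 8730. Each measured listed gene had 1 such probe set. Members and lists were chosen with earlier results of these data known. All measured genes of the lists are named, which goes beyond the rule set for naming (at most 2 rises and 2 falls per list, or the smallest p). Genes most like MGL are the 5 with the highest Pearson r over the 6 arrays. Planned tests between family members could not be run, since 1 member was measured. Alternatives were quantile normalization, median centring, a floor at the 20th percentile, a filter on dim probe sets, an intensity trend with robust variances, array weights, a replicate block and leaving out each array.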

Additional observations from a re-analysis of the deposited data

How the results depend on the processing

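MGL stayed lower under all 13 alternatives. A floor at the 20th percentile, which raises its WOX5 values to that floor, gave a log2 difference of -4.30, and it ran from -5.71 to -4.55 when 1 array was left out. SAMDC, AT5G15950, APS4, FOLB1 and FOLB2 kept their calls under all 13. Pathway rises numbered 3 with centred arrays and 3 with a replicate block, and 3 to 5 when 1 array was left out. Falls numbered 2 with the block and 2 to 4 when 1 array was left out. Over all probe sets, calls numbered 2270 with the replicate block (1719 higher, 551 lower). They ran from 2827 to 4854 when 1 array was left out, with 2101 to 2854 higher and 726 to 2000 lower. Falls numbered 5297 with centred arrays, 3247 with the floor, 3245 after filtering dim probe sets and 3314 with robust variances on an intensity trend. With the replicate block, ARD4, AT3G23940, AT1G50110 and SIR lost their calls (limma adjusted p = 0.056, 0.10, 0.096 and 0.12). Deviations of same-numbered arrays correlated at -0.05, 0.02 and 0.02. With 3 arrays per group these values cannot exclude a shared preparation, and the labels do not say what the replicate numbers mark. Among uncalled genes signs turned as follows, as log2 differences. With quantile normalization AT3G58610 was at 0.19 and ATBCAT-5 at -0.08. With centred arrays ATBCAT-5 was at -0.28, AT3G07270 at -0.27, ADCL at -0.08 and APS3 at -0.25. With array weights ATBCAT-5 was at -0.01 and APS3 at -0.05. Left-out arrays gave -0.03 to 0.17 for ATBCAT-5, -0.13 to 0.30 for APS3, -0.10 to 0.01 for MMT and -0.58 to 0.01 for BCAT4. The cause of these changes was not tested. Genes within background in both groups were not followed, and each measured gene had no other probe set named for it alone. Signal near background limits MGL, FOLB1 and BCAT4 in WOX5 cells.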

Other observations

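Among the 9 called pathway genes, WOX5 replicate 2 was the WOX5 array farthest from the TMO5 arrays in 7, the exceptions being SAMDC and FOLB1. It was high for AT5G15950, ARD4, APS4 and APS3 and low for AT3G23940, AT1G14810, AT3G58610, HMT-1 and AT1G72810. This array thus differs from its group in both directions among the measured pathway genes. Leaving it out gave 5 pathway rises and 4 falls, with SIR losing its call and HMT-1 gaining one.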
